A study of Mus musculus with 4 samples.

Results

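The 10 nuclear genes described here encode chaperones and proteases that fold, refold or degrade proteins inside mitochondria, namely Hspd1, Hspe1, Hspa9, Dnaja3, Trap1, Lonp1, Clpp, Clpx, Yme1l1 and Afg3l2. They were chosen by name, and every probe set whose only gene symbol in the platform annotation is one of these names was used. This gave 25 of the 34958 single-symbol probe sets and 10 of the 18194 genes named on the array. Genes entered the comparisons when at least 1 of the 4 arrays read 6.05 or more on the log2 scale, which is the median of all values, and the brightest probe set on average stood for its gene. All 10 genes were compared, among 12098 in all, and 23 of the 25 probe sets passed on their own, the exceptions being 1 probe set of Dnaja3 and 1 of Afg3l2.

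The cells were murine embryonic stem cells (CM7/1) carrying Hey1 or Hey2, transcriptional repressors downstream of Notch, for overexpression under doxycycline. The Hey1 line and the Hey2 line were each measured as uninduced cells, given no doxycycline according to the labels, and as cells labelled induced, given 1000 ng/ml doxycycline for 48 h, with 1 Affymetrix array in each of the 4 groups and no replicates. Doxycycline is itself an inhibitor of the mitochondrial ribosome. No array here holds cells given the drug without a Hey factor, so drug and factor cannot be told apart, and the labels do not state how many clones each line holds or which promoter drives the factor. A difference between 2 arrays is therefore given without a p-value, beside the percentage of all genes that differed as much. Because this is bulk RNA, fewer cells of a type and less RNA per cell cannot be told apart either.

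All 8 embryonic stem cell markers passed the level filter, with Pou5f1 between 13.67 and 13.76 in the 4 arrays and list medians of -0.012 and -0.00074 for the differences within the lines. Nanog was lower in the Hey2 line than in the Hey1 line, with differences of -0.54 in uninduced and -0.36 in labelled induced cells, and Esrrb differed by -0.27 within the Hey1 line. Among markers of other cells, 2 of 8 fibroblast genes passed (Thy1 and Col1a2) and 2 of 6 cardiomyocyte genes (Myl7 and Myh6), with the collagen gene Col1a1 at most 5.31. Uninduced and labelled induced arrays read 7.13 and 7.80 for Thy1 in the Hey1 line, and 5.51 and 5.73 in the Hey2 line. Col1a2, a collagen gene, read 6.04 and 6.13 and then 6.27 and 5.89 in the same order, lower in the labelled induced array of the Hey2 line. Myh6, a cardiac myosin gene near the filter, read 6.07 and 6.53 and then 5.60 and 6.48. Myl7, an atrial myosin light chain gene and the brighter one, went the other way, at 8.50 and 8.48 and then 7.76 and 7.28. Their part in the results below was not tested. The probe set of Hey1 read 6.73 and 6.51 in the Hey1 line, and that of Hey2 read 4.25 and 4.34 in the Hey2 line, below the level filter. Neither shows the labelled induction, and it is not stated whether these probe sets can read the introduced transcripts. Each difference within a line is therefore described as labelled induced minus uninduced.

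Most mitochondrial proteins are made in the cytosol and imported unfolded. In the matrix, the Hsp70 protein mortalin (Hspa9) with its J-domain partner Tid1 (Dnaja3) takes them up, and the Hsp60 and Hsp10 chaperonin (Hspd1 and Hspe1) folds them. Damaged or unassembled proteins are degraded by AAA+ proteases, Lon and ClpXP in the matrix and the YME1L and AFG3L2 enzymes at the inner membrane. When protein folding in the organelle is disturbed, cells can raise transcription of these genes, a programme called the mitochondrial unfolded protein response, in which Ddit3, Cebpb and Atf5 have been described as regulators. Inhibition of mitochondrial translation, which leaves nuclear-encoded respiratory subunits without their partners, is a known trigger of mitochondrial stress signalling.

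RefSeq promoter windows (GRCm38.p6, 250 bases before to 50 after a start) were found for 8 of the 10 genes, with 9 windows, and bases before the start are shown for 3 of them. Hspd1 and Hspe1 are divergent genes, and the first sequence is the 215 bases between their start sites, read on the Hspe1 strand (chr1:55087933-55088147, plus strand). A further Hspd1 start in the table lies 95 bases past that of Hspe1. Lonp1 (chr17:56626904-56627153, minus strand) is shown for its E-box, the class of site that Hey factors bind, and Yme1l1 (chr2:23156255-23156504, plus strand) because its representing probe set differed most within a line. Capitals mark matches to the motifs searched.
Hspd1 and Hspe1: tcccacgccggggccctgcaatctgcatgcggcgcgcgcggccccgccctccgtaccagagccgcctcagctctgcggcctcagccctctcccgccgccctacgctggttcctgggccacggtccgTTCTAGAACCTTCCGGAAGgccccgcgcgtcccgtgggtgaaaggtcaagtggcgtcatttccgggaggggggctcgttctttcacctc
Lonp1: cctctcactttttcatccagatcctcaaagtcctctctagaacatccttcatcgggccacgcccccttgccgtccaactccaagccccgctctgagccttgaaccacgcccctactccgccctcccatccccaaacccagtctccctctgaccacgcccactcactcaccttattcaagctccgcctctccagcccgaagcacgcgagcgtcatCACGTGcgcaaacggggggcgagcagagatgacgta
Yme1l1: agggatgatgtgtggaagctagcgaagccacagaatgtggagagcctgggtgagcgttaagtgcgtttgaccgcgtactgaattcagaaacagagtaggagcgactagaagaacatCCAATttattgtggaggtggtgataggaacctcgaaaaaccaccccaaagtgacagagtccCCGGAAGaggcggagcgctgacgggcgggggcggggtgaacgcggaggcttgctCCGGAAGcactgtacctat

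The motifs were searched on both strands, and each share below is that of all 32851 promoter windows of the same length. The capitals in the Hspd1 and Hspe1 stretch hold 3 overlapping heat shock element cores, 2 of TTCNNGAA (in 8.52% of windows) and 1 of GAANNTTC (in 7.86%), which overlap 2 matches to the GABP site CCGGAAG (8.86%), a site also matched for Clpp, Dnaja3 and Yme1l1. The heat shock matches begin at positions -89, -84 and -79 from the Hspe1 start. The other heat shock match lay in the Clpp window, at 33 bases after the start. The E-box CACGTG (7.15% of windows) was matched in the Lonp1 window, at -36, and in the window of the further Hspd1 start, at -80. Both capital runs of 7 bases in the Yme1l1 stretch are GABP sites, and the run of 5 is the CCAAT box (37.4%), which was also matched for Clpx, Dnaja3 and the further Hspd1 start. The Nrf1 core GCGCATG (3.91%) was matched for Clpx, and the amino acid response element of Atf4, TGATGNAA (3.97%), in 0 of the 9 windows. A match describes letters and shows no binding.

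Most of the 10 genes varied little between the 4 arrays at their representing probe sets. The highest and lowest arrays differed by less than 1.2-fold (0.26 on the log2 scale) for 8 genes, and by more for Clpx and Yme1l1, so 2 of 10 passed that fold where 65.8% of all genes compared did. Among the 7355 genes above the 75th percentile of all values (8.31), a set that holds all 10, the percentage was 57.5. By probe set, 9 of 23 passed, against 67.6% of all probe sets.

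**Figure D1:**
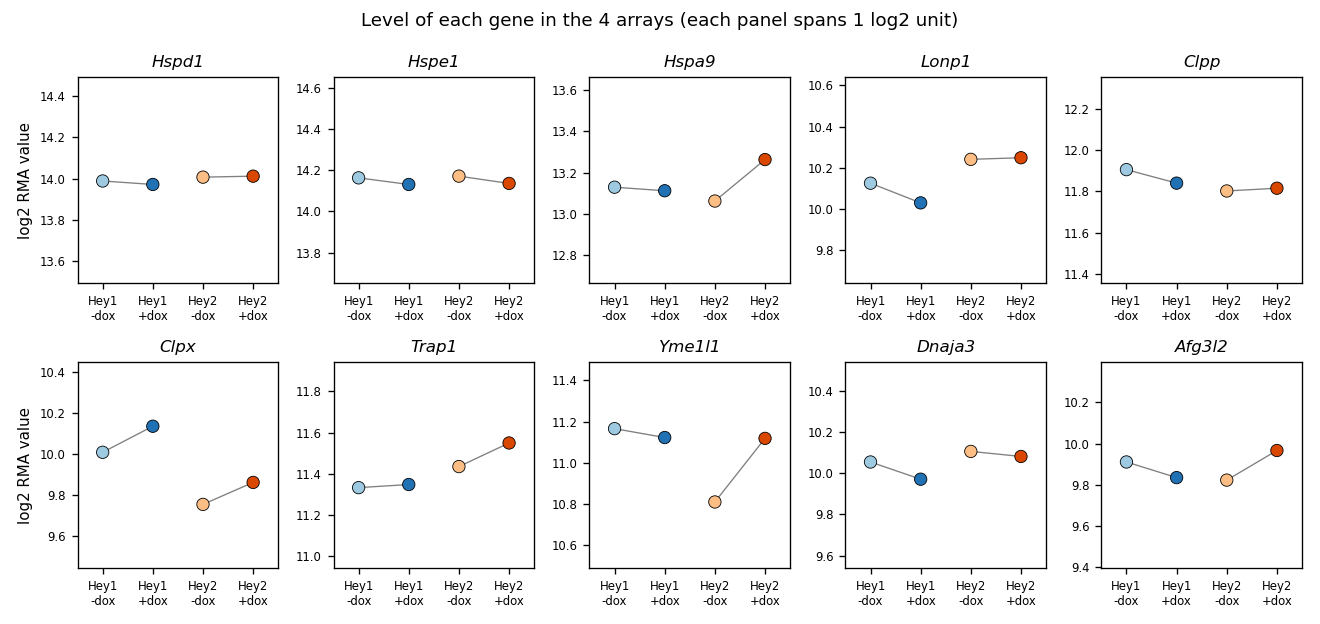
Log2 RMA value (vertical axis, 1 log2 unit in every panel) of the representing probe set of each gene in the 4 arrays, with blue for the Hey1 line, orange for the Hey2 line, pale points for uninduced (-dox) and dark points for labelled induced (+dox) arrays. Each point is 1 array and lines join the arrays of a line. Hspd1 and Hspe1 are flat within 0.040, and Yme1l1 is lowest in the uninduced Hey2 array at 10.81.

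The chaperonin genes were the most even at the representing probe sets. Hspd1, the Hsp60 subunit, has 1 probe set, with 13.99 in the uninduced and 13.97 in the labelled induced Hey1 array and 14.01 in both Hey2-line arrays. Its differences were -0.017 and 0.0048 in the Hey1 and Hey2 lines, and 91.1% and 98.1% of all genes differed by as much or more. Hspe1, the Hsp10 lid of the same chaperonin, read 14.16 and 14.13 in the Hey1 line and 14.17 and 14.14 in the Hey2 line, differences of -0.032 and -0.035. The second Hspe1 probe set read 13.04, 12.91, 12.87 and 12.81 in the order Hey1 uninduced, Hey1 labelled induced, Hey2 uninduced and Hey2 labelled induced. It was lower by 0.13 and 0.067 in the labelled induced arrays, so both Hspe1 probe sets had the same sign in both lines, at sizes under 1.2-fold. The probe set that represents Hspe1 ends in _s_at, a suffix for probes shared by several transcripts, as do those that represent Clpp and Afg3l2. The Hspd1 and Hspe1 values lie near the top of the scale, whose highest value is 15.2, and whether signal is compressed there was not tested.

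The likeness of the pair was also measured over the 4 arrays. Each gene's 4 values were centred on their mean and the Euclidean distance to Hspd1 was taken, which describes these arrays and is not a test. Hspe1 ranked 72 of 12097 genes, at a distance of 0.038, and the nearest genes were Bag1 (0.0047), Kansl3 (0.011) and Rpl7a (0.011). For Clpp the nearest were Slc30a5, Prr14 and Fbxo5, and its partner Clpx ranked 5212. For Yme1l1 they were Ifit1bl2, Spag5 and Arhgap28, the last at rank 4 because predicted genes and clone names were left out. Afg3l2, the other inner membrane protease gene, ranked 1792. Genes that hardly vary lie near each other by this measure, which bears on the rank of Hspe1.

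Heat shock genes of the cytosol, measured on the same arrays, were mixed. Hspa8, the constitutive Hsp70 gene, had differences of 0.0054 and 0.0027 in the Hey1 and Hey2 lines, smaller than those of Hspe1, and Hsph1, an Hsp110 gene, had 0.025 and 0.029. The 3 genes past 1.2-fold in the same direction in both lines were Hspa1a, Hspa1b and Dnajb6. Hspa1a, an inducible Hsp70 gene, read 6.64 and 9.08 in the Hey1 line and 5.48 and 6.30 in the Hey2 line, differences of 2.44 and 0.83. Its near-identical copy Hspa1b had 0.81 and 0.47, and reads of the 2 genes by each other's probes cannot be told apart here. Dnajb6, a J-domain protein gene, had -0.31 and -0.41, and its other 3 probe sets were lower in both lines too. Of the 21 cytosolic and endoplasmic reticulum counterparts compared, 2 were at least 1.2-fold higher and 1 lower in the Hey1 line, against 8.63% of all genes higher and 6.70% lower. In the Hey2 line 4 were higher and 1 lower, where the percentages were 12.9 and 15.7. The shares are thus near or below those of all genes, except the 4 higher in the Hey2 line. Their medians were 0.025 and 0.077.

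Hspa9 and Dnaja3, which work together on incoming proteins, had opposite signs in the Hey2 line at their representing probe sets. The representing Hspa9 probe set read 13.13 and 13.11 in the Hey1 line and 13.06 and 13.26 in the Hey2 line, differences of -0.017 and 0.20. A second bright probe set, at 12.96 and 13.05 in the Hey1 line and 12.87 and 13.03 in the Hey2 line, gave 0.092 and 0.17. The array labelled induced of the Hey2 line was thus above the uninduced one in both, by under 1.2-fold. The other 3 Hspa9 probe sets gave 0.080, -0.11 and -0.29 in the Hey1 line and 0.022, -0.037 and 0.046 in the Hey2 line. The -0.29 is the 1 difference past 1.2-fold among all 23 probe sets in the Hey1 line, where 16.3% of all probe sets passed it, and it comes from a dim probe set (6.94 and 6.66).

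Dnaja3 read 10.05 and 9.97 in the Hey1 line and 10.11 and 10.08 in the Hey2 line, differences of -0.083 and -0.024. Its second probe set above the filter gave -0.056 and -0.038, so all 4 differences were small and negative. Trap1, the mitochondrial Hsp90, read 11.33 and 11.35 in the Hey1 line and 11.44 and 11.55 in the Hey2 line, differences of 0.015 and 0.11. The other Trap1 probe set reversed that order of the lines, with 0.24 and -0.012. It ends in _x_at, a suffix for probes similar to other sequences, as does the probe set that represents Hspa8.

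The matrix protease genes showed no common direction. Lonp1, the Lon protease, has 1 probe set, which read 10.13 and 10.03 in the Hey1 line and 10.24 and 10.25 in the Hey2 line. The differences were -0.095 and 0.0078, and 54.6% and 96.8% of all genes differed as much. Clpp, the proteolytic subunit of ClpXP, read 11.90 and 11.84 in the Hey1 line and 11.80 and 11.81 in the Hey2 line, differences of -0.065 and 0.013. The second Clpp probe set gave -0.15 and -0.10.

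Clpx, the unfoldase that feeds Clpp, had the widest spread between lines among the matrix genes. Its representing probe set read 10.01 and 10.13 in the Hey1 line and 9.76 and 9.86 in the Hey2 line, so that both Hey2-line arrays lay below both Hey1-line arrays. The differences within the lines were 0.13 and 0.11, nearly equal. Between the lines, a comparison that reuses the same 4 arrays, they were -0.25 in uninduced and -0.27 in labelled induced cells, and the last was 1 of 10 genes at least 1.2-fold lower there, where 15.5% of all genes were. The second Clpx probe set, dim at 6.81, 6.66, 6.41 and 6.90 in the same order of arrays as above, gave -0.15 and 0.49 within the lines. The 0.49 was the largest difference within a line in the 23 probe sets, and the 2 Clpx probe sets disagree on whether the lines responded alike.

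The inner membrane protease genes read higher in the labelled induced than in the uninduced Hey2 array at every probe set above the filter. Over all genes compared, 5518 of 12098 did so at their representing probe sets. Yme1l1, the ATP-dependent protease that faces the intermembrane space, read 11.17 and 11.12 in the Hey1 line and 10.81 and 11.12 in the Hey2 line at its representing probe set. Its Hey2-line difference of 0.31 (1.24-fold) made it the 1 gene of 10 at least 1.2-fold higher there, where 12.9% of all genes were, and 22.8% differed by as much in either direction. The other Yme1l1 probe sets gave 0.15, 0.27 and 0.30 in the Hey2 line. In the Hey1 line the 4 probe sets gave -0.043, 0.061, -0.20 and 0.21, with no shared sign. Afg3l2, a subunit of the matrix-facing m-AAA protease, read 9.91 and 9.84 in the Hey1 line and 9.82 and 9.97 in the Hey2 line, differences of -0.076 and 0.14, and its second probe set gave 0.080 and 0.33. When the probe sets of each gene were averaged, Yme1l1 had 0.258, just short of 1.2-fold (0.263), and Clpx was the 1 gene past it.

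For Yme1l1 the uninduced Hey2 array held the low value. Yme1l1 differed from the uninduced Hey1 array by -0.36 at the representing probe set and by -0.45, -0.25 and -0.41 at the others, 1 of 10 genes at least 1.2-fold lower where 16.8% of all genes were. Between the labelled induced arrays of the 2 lines the representing probe set was level (-0.0041), while the others gave -0.36, -0.33 and 0.22. The uninduced Hey2 array was the lowest of the 4 at all 8 probe sets of Yme1l1, Afg3l2 and Clpx that passed the filter, and at 28.4% of all probe sets. Over all 10 genes it was the lowest at 12 of 23 probe sets, and at 5 of 10 representing probe sets where it was for 26.8% of all genes. These 3 genes were singled out after their values were seen. For Afg3l2 at its representing probe set that array (9.82) was close to the labelled induced Hey1 array (9.84), and the labelled induced Hey2 array (9.97) was the highest. Measured against uninduced Hey1-line cells, the Hey2-line difference of Yme1l1 became -0.047. RNA quality differed too, by control genes read at the 3' end minus the 5' end on the log2 scale. Tfrc gave 0.95 and 0.84 in the Hey1 line and 0.67 and 0.96 in the Hey2 line, lowest in the uninduced Hey2 array. Gapdh, Actb and Pcx were lowest there too, at 0.012, 0.39 and 1.33, so signal leaned least to the 3' end in that array. The part of RNA quality in the result was not tested.

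**Figure D2:**
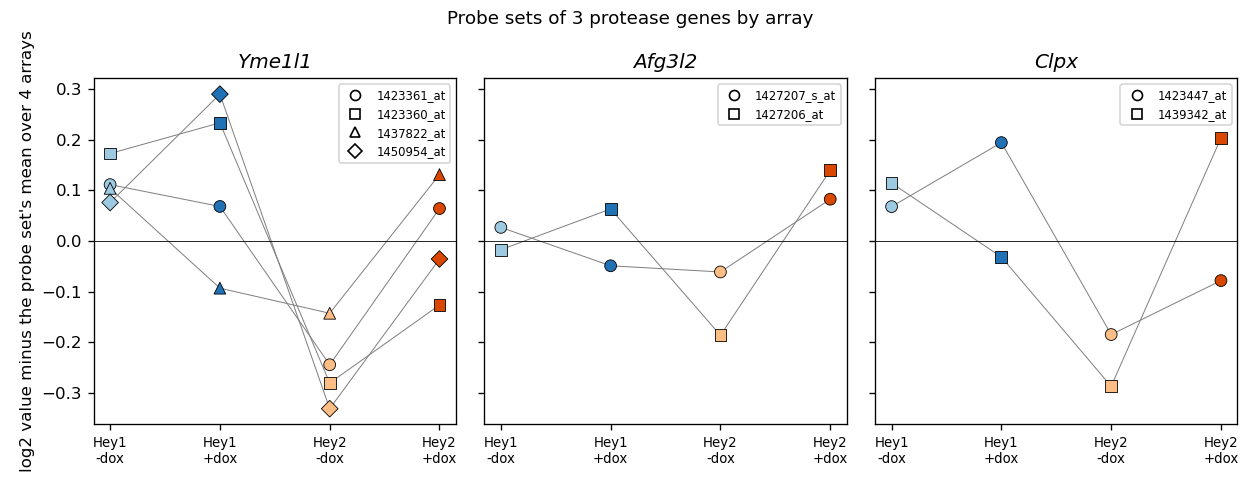
Log2 value minus the probe set's own mean over the 4 arrays (vertical axis) for each probe set of Yme1l1, Afg3l2 and Clpx that passed the level filter, by array, with a marker shape per probe set and colours by array. All 8 probe sets are lowest in the uninduced Hey2 array, while their order in the other arrays varies.

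Set side by side, the lines gave opposite majorities at small sizes. In the Hey1 line 2 of the 10 genes were above 0, with a median of -0.038, and 0 were 1.2-fold higher or lower, where 8.63% of all genes were higher and 6.70% lower. In the Hey2 line 8 of 10 were above 0, with a median of 0.060, and 1 was 1.2-fold higher and 0 lower, where 15.7% of all genes were lower. Over all 12098 genes, 5658 differences were positive for Hey1 and 5518 for Hey2, and the medians were -0.012 and -0.022. By probe set, 8 of 23 were above 0 in the first line and 16 of 23 in the second, and 5 were at least 1.2-fold higher in the Hey2 line (3 of Yme1l1, 1 of Afg3l2 and 1 of Clpx), where 14.9% of all probe sets were. The difference between the lines' responses uses all 4 arrays and was not tested. No gene of the 10 reached 1.5-fold in either line, where 2.42% and 5.48% of all genes did.

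**Figure D3:**
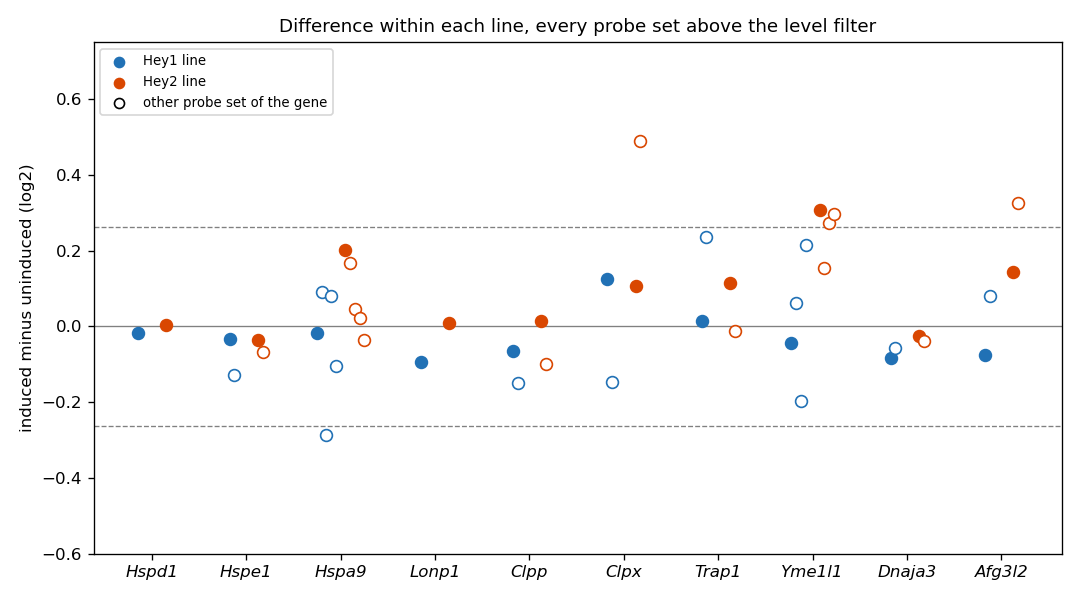
Labelled induced minus uninduced log2 value (vertical axis) for each gene, blue for the Hey1 line and orange for the Hey2 line, with filled points for the representing probe set and open points for the others above the level filter. Dashed lines mark 1.2-fold. Most points lie inside the dashed lines, and 3 Yme1l1, 1 Afg3l2 and 1 Clpx probe sets of the Hey2 line lie above them.

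The response common to both lines was tested with limma over all 12098 genes, with the line as a block and the lines as the 2 repeats. Separate cultures are not stated in the labels, so the p-values cover only the spread between these samples, which may be technical. The error term is the difference between the responses of the 2 lines, which limma draws towards a value estimated from all genes. The lines carry different factors, so this error mixes any difference between Hey1 and Hey2 with noise. The responses of Hspd1 and Hspe1 differed between the lines by only 0.022 and -0.0031. Their SE given below thus comes mostly from the value estimated from all genes. No gene passed an adjusted p of 0.05 (lowest 0.237), 1598 genes, or 13.2%, had an unadjusted p under 0.05, and 0 of the 10 were among those. The largest mean difference of the 10 was that of Yme1l1, 0.13 ± 0.12 (SE, adjusted p = 0.651 by limma), with a 95% interval of -0.20 to 0.47. Clpx had 0.12 ± 0.080 (-0.11 to 0.34) and Hspa9 0.092 ± 0.097 (-0.18 to 0.36). For Hspd1 the mean was -0.0060 ± 0.080 and the interval -0.23 to 0.22, and for Hspe1 it was -0.034 ± 0.080 and -0.26 to 0.19. These intervals leave room for differences of up to about 1.2-fold in the chaperonin pair and more in Yme1l1, so they do not show that the genes were unchanged. For the chaperonin pair the width depends on the limma setting. With a prior that follows the level and is robust, the intervals were -0.092 to 0.080 for Hspd1 and -0.12 to 0.050 for Hspe1.

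Genes that work with the 10 were read from lists of related functions. Of 10 cochaperones and import motor genes compared, such as the nucleotide exchange factor gene Grpel1 (-0.080 and -0.052) and the disaggregase gene Clpb (-0.063 and 0.030), 0 were 1.2-fold higher or lower in either line, and the medians were -0.038 and -0.021. Of 16 other mitochondrial proteases, processing peptidases and prohibitins, 0 passed that fold in either line, with medians of -0.0040 and 0.020. The shares of all genes past that fold in either direction were 15.3% for the Hey1 pair of arrays and 28.6% for the Hey2 pair. Of 19 import translocase genes, the Hey1 line had 0 past it and the Hey2 line 2, both lower, the intermembrane space import gene Chchd4 (-0.36) and Timm29 (-0.31), where 15.7% of all genes were lower, with medians of -0.0027 and -0.069. Of 21 mitochondrial translation factor genes, 1 was higher in each line, where 8.63% and 12.9% of all genes were, with medians of -0.0082 and -0.019. These were Mars2, a methionyl-tRNA synthetase (0.30), in the Hey1 line and Guf1, a translation factor (0.53), in the Hey2 line. Both were dim in those arrays, with Mars2 at 6.13 and 6.42 and Guf1 at 6.14 and 6.67. Mars2 also had 0.25 in the Hey2 line, just short of 1.2-fold. Among genes above the 75th percentile both counts were 0. Of 17 genes for mitochondrial DNA upkeep and mass, 0 were past 1.2-fold in either line, with medians of -0.016 and -0.033. The 1 mitochondrially encoded gene with a probe set of its own name, ND5, a complex I subunit, read 12.04 and 12.24 in the Hey1 line and 12.22 and 11.75 in the Hey2 line, differences of 0.20 and -0.48. The probe set shows only its own transcript's level.

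Among regulators and targets of mitochondrial stress signalling, several genes read higher in the labelled induced arrays. Of 21 compared, at least 1.2-fold higher values were read for 3 in the Hey1 line (8.63% of all genes) and for 10 in the Hey2 line (12.9%). The 10 include Fgf21, at 5.97 and 5.87 in the Hey1 line and 5.85 and 6.12 in the Hey2 line. It passed the level filter only through the array in which it counts as higher. With the 75th percentile filter the Hey2-line count past 1.2-fold was 9, where 10.1% of genes were higher. In both lines 0 were lower by that fold, and the medians were 0.049 and 0.24. The 3 that were higher in both lines were Trib3, a pseudokinase gene (0.43 and 0.69), Cebpb, a bZIP factor (0.56 and 0.42), and Ddit3, which encodes Chop (0.38 and 0.56). Ddit3 read 8.96 and 9.34 in the Hey1 line and 8.84 and 9.41 in the Hey2 line, so both labelled induced arrays lay above both uninduced arrays. Its second probe set gave 0.49 and 0.27. The second Trib3 probe set gave 0.31 and 0.51. That of Cebpb gave 0.16 and 0.35, under 1.2-fold in the Hey1 line. Atf5, a factor described as driving mitochondrial chaperone genes, had -0.029 and 0.44 in the same order of lines, and Atf4 0.019 and 0.24. In the limma fit 0 of the 21 passed over all genes and 4 had an unadjusted p under 0.05. Several genes of this list are general Atf4 targets whose differences were known from earlier results of these arrays, so the list is not independent evidence of its direction.

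**Figure D4:**
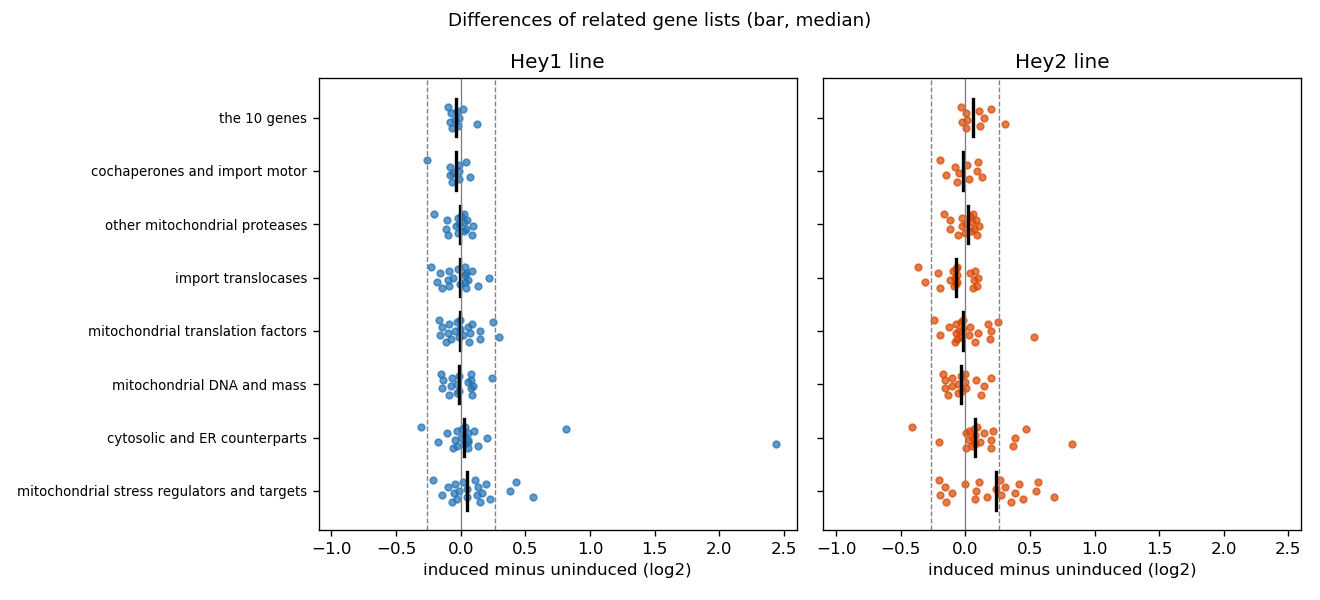
Labelled induced minus uninduced log2 difference (horizontal axis) of each compared gene in 8 lists (rows), with the Hey1 line on the left and the Hey2 line on the right. Each point is a gene, bars are list medians and dashed lines mark 1.2-fold. The 10 genes lie near 0 with medians of -0.038 and 0.060, and the stress list reaches 0.24 in the Hey2 line.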

How the data were processed

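Total RNA of 4 samples, 1 in each group, was hybridised to single-colour Affymetrix arrays. The authors deposited log2 probe set values made with RMA, per the submitters' processing notes. Its version and the build were not found in the labels. RMA sets all arrays to 1 distribution of values, which hides a shift common to all genes. Values ran from 2.67 to 15.2, as log2 values do. Arrays have no counterpart of depth, and their number limits the precision.

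Only probe sets with 1 gene symbol were used. Differences were taken on the log2 scale between 2 arrays and counted at 1.2-fold, with 1.5-fold and 2-fold as alternatives. R 4.3.3 with limma 3.58.1 fitted the response shared by the lines: lmFit and eBayes with a block for line, 1 residual degree of freedom, and Benjamini-Hochberg adjustment over 12098 genes. The fit was tested on simulated data with equal changes in both lines, larger than any seen for the 10 genes. Smaller changes, and lines that respond unlike each other, were not covered. Python 3.11.15, numpy 2.4.6, pandas 2.3.3 and matplotlib 3.10.9 did the rest. The genes and lists were chosen with earlier results of these data known. Named list genes were those 1.2-fold changed in the same direction in both lines, at most 6 per direction, and likeness named the 3 nearest genes. Predicted genes and clone names were left out of both. Other named list genes were chosen after their values were seen. Alternatives covered the level filter, cyclic loess, median centring, an offset of 32, how probe sets were combined, the reference array and the limma settings.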

Additional observations from a re-analysis of the deposited data

Results flagged for a closer look

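Probe sets are given here where 1 line differed by at least 1.2-fold and the other had the opposite sign. Each line is 1 pair of arrays, so the difference between the lines was not tested. With the Hey1 line given first, Yme1l1 had -0.043 and 0.31 at its representing probe set, and -0.20 and 0.27 at its dimmest. The dim Clpx probe set had -0.15 and 0.49. The dim Hspa9 probe set described above had -0.29 and 0.046, the 1 case in which the Hey1 line had the larger difference.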

How the results depend on the processing

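The medians of the 10 genes kept their sign in all 4 comparisons under the settings run, from -0.043 to -0.012 in the Hey1 line and from 0.025 to 0.061 in the Hey2 line. Counts past 1.2-fold rest on 1 or 2 genes. With every probe set on its own, 1 was lower in the Hey1 line, 5 higher in the Hey2 line, 4 lower in the uninduced Hey2 line than in the uninduced Hey1 line, and 1 higher and 3 lower between the labelled induced arrays. With the mean of probe sets, 2 genes were lower between uninduced arrays and 0 between labelled induced arrays. At 1.5-fold and 2-fold each count was 0. With the other line's uninduced array as the reference, the Hey1 line had 2 higher genes and the Hey2 line 0, and Yme1l1 had -0.047 in the Hey2 line. The cause was not tested.

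In limma, 0 of the 10 genes passed under any setting. Over all genes 4 passed with the 75th percentile filter and 433 with a prior that follows the level and is robust. Leaving out each array in turn, with no line block, gave 0 to 5 (5 without the Hey2 induced array), a lone array being assumed to vary like the others. The fibroblast and cardiomyocyte marker lists, with 2 genes compared in each, changed sign or size. The fibroblast median of 0.38 in the Hey1 line became -0.0026 without the level filter and 0.67 with the mean of probe sets, and that of -0.079 in the Hey2 line became 0.22 with that mean. The cardiomyocyte medians of 0.22 and 0.20 became -0.11 and -0.081 without the filter, and -0.020 and -0.48 with the stricter filter or the mean. The fibroblast lists had 0 genes at the stricter filter. The limma fit pairs the arrays of a line. No paired analysis was possible by replicate number, because the labels give none.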
